A study of Mus musculus with 12 samples.

Results

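The BCL2 family decides whether a T cell lives or dies at the mitochondrion, and 10 of its genes were followed here in regulatory T (Treg) cells with and without CNS4, a distal enhancer of Foxp3. The 10 genes were chosen by symbol out of 55453 genes in the count table, and all 10 had reads. They were the death-promoting BH3-only genes Bcl2l11 (Bim), Bik, Bbc3 (Puma) and Pmaip1 (Noxa), the pore-forming effectors Bax and Bok, and the survival genes Mcl1, Bcl2, Bcl2l1 (Bcl-xL) and Bcl2a1d (a copy of A1).

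The effectors permeabilise the outer mitochondrial membrane, which releases cytochrome c and starts the caspase cascade. Survival proteins hold the effectors and BH3-only proteins in check through a groove that binds the BH3 helix, and BH3-only proteins fill that groove or activate the effectors. In the thymus Bim is known for killing self-reactive thymocytes, and in mouse Treg cells Mcl1 and signals through the common gamma chain receptors are known to sustain survival.

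CD4+Foxp3+ cells of C57BL/6 mice went from the flow sorter straight into lysis, and their RNA was sequenced, with 3 libraries in each of 4 groups. The groups were males with the CNS4 knockout (KO), males with the floxed, undeleted allele (FL), females labelled CNS4 knockout heterozygotes and females labelled CNS4 floxed heterozygotes. Male FL libraries were numbered 1, 2 and 4 and those of the other groups 1 to 3. The labels gave no age in weeks, no Cre driver and no separate animal per library, so the p-values speak only of spread among these libraries, and in heterozygous females they did not say which allele the sorted cells used. Every group shared the sort on Foxp3, and the organ appears only as the letters Thy in the titles. In such bulk samples, fewer cells of a type and less RNA per cell cannot be told apart.

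The BH3 helix is the element through which these proteins bind each other, so the coding bases of its core are shown for the members in which the motif was found. The motif searched in the translated longest complete coding sequence was leucine, any 3 residues, glycine or alanine, then aspartate. Capitals mark its 18 bases, with 12 bases on each side in lower case, 5′ to 3′ on the coding strand, from GENCODE release M21 on GRCm38.
Bcl2l11: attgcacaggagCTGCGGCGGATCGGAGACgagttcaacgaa
Bik: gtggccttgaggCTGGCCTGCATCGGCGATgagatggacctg
Bbc3: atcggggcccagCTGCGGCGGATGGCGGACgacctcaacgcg
Bok: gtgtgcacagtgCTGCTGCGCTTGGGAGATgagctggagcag
Bax: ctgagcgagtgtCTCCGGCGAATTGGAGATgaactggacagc
Mcl1: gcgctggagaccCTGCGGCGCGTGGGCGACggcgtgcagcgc
Bcl2: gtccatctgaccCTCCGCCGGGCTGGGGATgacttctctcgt
Bcl2l1: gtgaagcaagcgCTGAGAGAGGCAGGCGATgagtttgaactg

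All lie in coding exons. The BH3-only sequences are at chr2:128147138-128147179 (plus strand, Bcl2l11), chr15:83543072-83543113 (plus strand, Bik) and chr7:16313761-16313802 (plus strand, Bbc3). The effector sequences are at chr1:93686645-93689173 (plus strand, Bok, across an exon junction) and chr7:45465994-45466035 (minus strand, Bax). The survival sequences are at chr3:95659424-95659465 (plus strand, Mcl1), chr1:106712572-106712613 (minus strand, Bcl2) and chr2:152829694-152829735 (minus strand, Bcl2l1). Each of these genes held the motif once and Bcl2a1d did not hold it, against 10.9% of 8907 genes with a coding sequence of at most 1000 bases and 23.9% of 21605 genes of any length. Pmaip1 was not searched. Among the members searched, the coding sequence of Bbc3 was the richest in G and C, at 72.2%. Next came 64.7% in Mcl1, 63.1% in Bok, 61.0% in Bcl2 and 59.2% in Bax. Lower were 58.7% in Bik, 55.9% in Bcl2l1, 55.6% in Bcl2l11 and 44.2% in Bcl2a1d.

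Which members could be read at all depended on the strand of the gene. Reads of protein-coding genes lay to between 95.8 and 97.2% in plus-strand genes, and the libraries held 12423335 to 30244505 gene counts. The plus-strand members were Bcl2l11, Bik, Bbc3, Pmaip1, Bok and Mcl1, and the minus-strand members were Bax, Bcl2, Bcl2l1 and Bcl2a1d. Bax had 1 to 20 counts per library, Bcl2l1 3 to 18 and Bcl2 7 to 19, so these 3 central genes of the family could hardly be followed here, and their low counts do not show low transcript levels. Bcl2a1d, although on the minus strand, had 43 to 129 counts. Of the 10 members, 8 passed the filter on low counts and were tested, and Bax and Bcl2l1 did not pass. Bok passed only through KO libraries, those of the males and female KO library 3, since no FL library reached the required 0.685 CPM.

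T cell and Treg transcripts were present in every library, with Foxp3 at 685 to 2675 CPM (the count relative to the TMM-adjusted library size), Il2ra, the high-affinity IL-2 receptor chain, at 1904 to 3163 CPM and the CD3 chain gene Cd3d at 776 to 1218 CPM. Cd4 on the minus strand had 72 to 198 counts. All 11 T cell and Treg markers had reads in all 12 libraries. Foxp3 was lower in each KO than in each FL library of the same sex. Transcripts of other cells were present too. The summed level of 19 myeloid and dendritic markers ran from 231 to 1738 CPM in male KO and 104 to 1605 CPM in male FL libraries, and from 826 to 1625 CPM in female KO and 267 to 1106 CPM in female FL libraries. Between 1 and 4 of these 19 markers were at 0 in a library. None of the 15 tested passed over both sexes by edgeR, against 3.31% of all tested genes. At an unadjusted p under 0.05 there were 0 of 15, against 20.2%. Of the 15, 14 were above 0, with a median log2 fold change of 0.70. Of the B cell markers, the minus-strand genes Pax5, Cd79b and Ms4a1 did not exceed 4 counts, while Cd79a on the plus strand had 230 to 890. Markers of double-positive thymocytes summed to 210 to 423 CPM in male KO and 202 to 396 CPM in male FL libraries, and to 331 to 753 CPM in female KO and 311 to 426 CPM in female FL libraries.

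Per kilobase of exon, Mcl1 was the most abundant plus-strand member, at a median of 53.02 CPM per kb over the 12 libraries, above 85.7% of 6689 tested plus-strand protein-coding genes. Pmaip1 followed at 26.0 and Bcl2l11 at 25.7 CPM per kb, and their ranges, 21.7 to 45.5 and 15.0 to 37.4 CPM per kb, overlapped. Bbc3 had a median of 4.72, Bik of 1.91 and Bok of 0.313 CPM per kb. Bbc3 ranged from 0.426 to 36.7 CPM per kb and so reached into the ranges of Bcl2l11 and Pmaip1, while Bik stayed at or below 3.56 and Bok at or below 0.681 CPM per kb. Minus-strand members were not ranked with them.

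**Figure D1:**
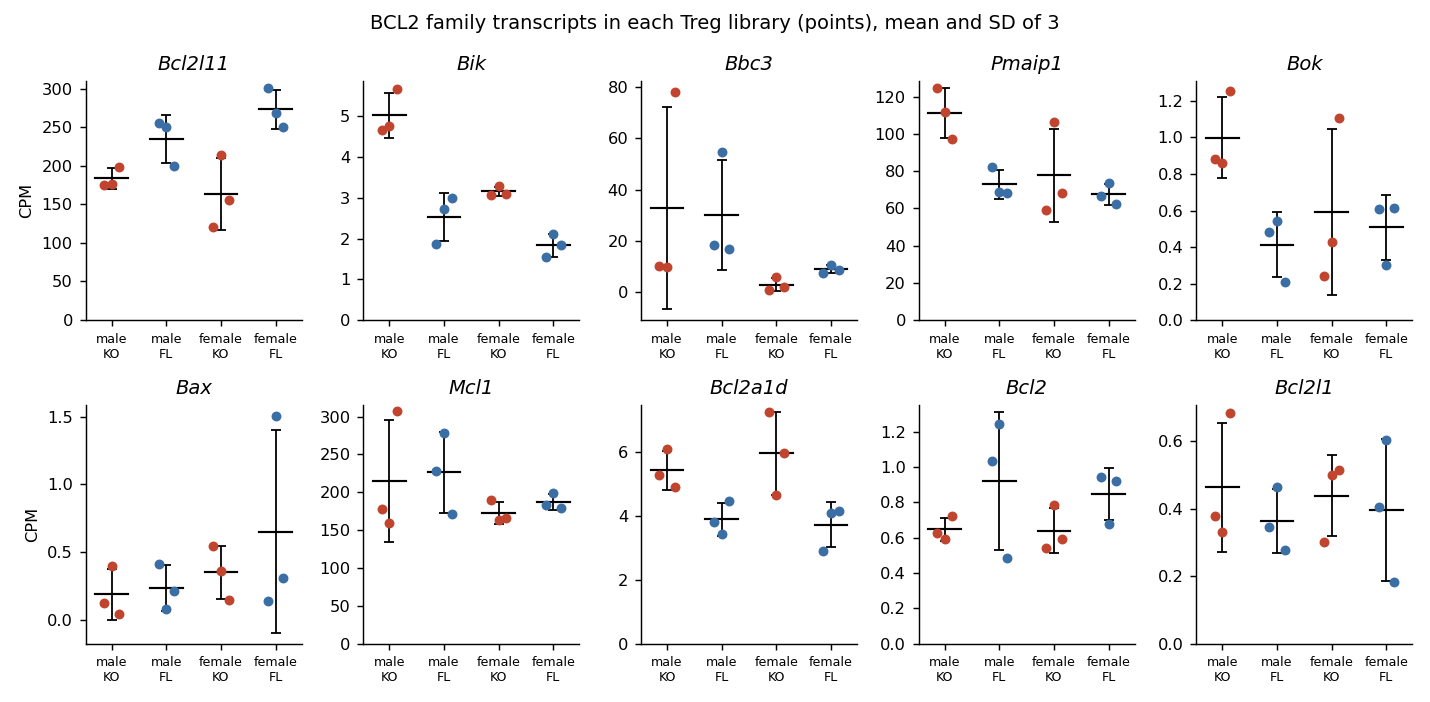
CPM of the 10 members in each library (points), with the mean and SD of 3 libraries (black), KO left of FL within each sex and a linear axis from 0 for each gene, or lower where an error bar passes below it. Bik and Bcl2a1d lie higher and Bcl2l11 lower in KO than in FL libraries of both sexes without overlap, while single libraries stand apart for Bbc3, Mcl1 and Bax.

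The comparison of KO with FL over both sexes asked whether the balance of death and survival transcripts differed without the enhancer. Bik was the only member past the threshold, and it rose. Bcl2l11 was lower and Bcl2a1d higher in every KO library, but neither passed in the fit of all 12 libraries. The 8 tested members thus had 1 call, higher in KO, against 3.31% of 12411 tested genes called, 2.68% higher and 0.637% lower (edgeR's quasi-likelihood test, Benjamini-Hochberg adjusted p under 0.05). At an unadjusted p under 0.05 there were 4 of 8 members, 3 higher and 1 lower, against 20.2% of genes, 11.8% higher and 8.44% lower. Their median log2 fold change was 0.16, beside -0.02 over all tested genes, with 4 above 0 and 4 below. The groups did not overlap in either sex, in the same direction, for 3 of the 8, 2 higher and 1 lower, against 5.75% of tested genes, 3.97% higher and 1.78% lower. Over both sexes DESeq2 called 3 of the 8, against 9.17% of the 12315 genes to which it gave an adjusted p. Bbc3 was not among those genes. By limma-voom 5 of the 8 were called, against 37.3% of genes. Without female KO library 2, edgeR called 3, against 22.6%. In males alone 5 of the 8 did not overlap, 4 higher and 1 lower, against 14.3% of genes, 8.2% higher and 6.13% lower. The 4 higher include Bok, which passed the filter on low counts only through KO libraries and adds no support. In females alone 4 of the 8 did not overlap, 2 higher and 2 lower, against 25.0% of genes, 15.3% higher and 9.7% lower.

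**Figure D2:**
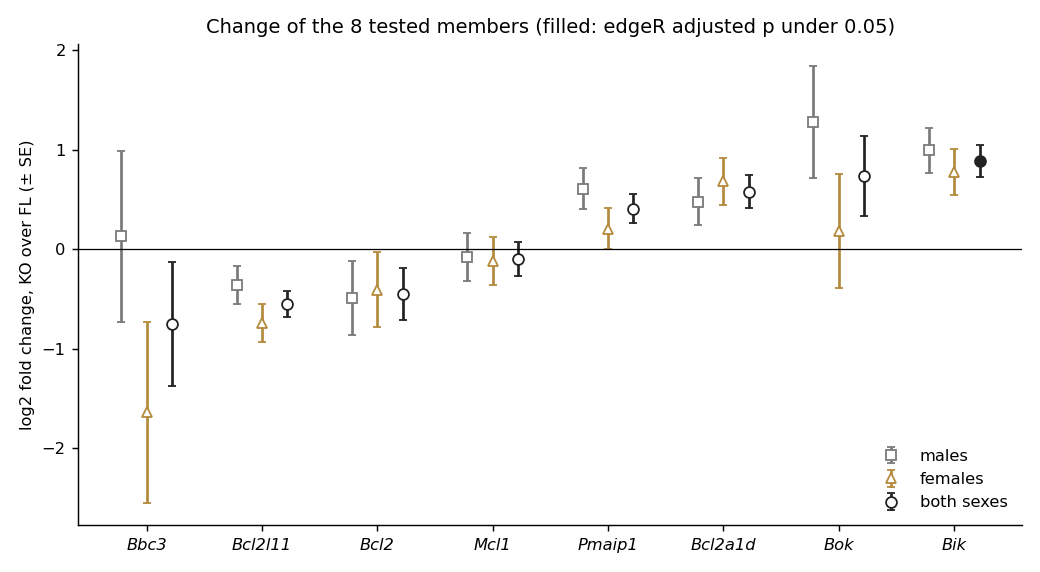
Log2 fold change of KO over FL with its SE for the 8 tested members, in males (squares), females (triangles) and over both sexes (circles), filled where the edgeR adjusted p was under 0.05. Only Bik over both sexes is filled, and the SE of Bbc3 and Bok is far wider than that of Bcl2l11.

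Among the BH3-only genes, Bik encodes a death inducer that sits at the endoplasmic reticulum. It had 4.65, 4.76 and 5.66 CPM in male KO libraries 1 to 3, against 1.86, 2.72 and 2.99 CPM in male FL libraries 1, 2 and 4. In females it had 3.08, 3.29 and 3.10 CPM in KO libraries 1 to 3, against 1.55, 2.11 and 1.84 CPM in FL libraries 1 to 3. Every KO library was thus above every FL library of its sex. Behind these levels stood 42 to 149 counts in KO and 23 to 43 in FL libraries. Over both sexes Bik rose 1.85-fold, by 0.89 on the log2 scale (SE 0.16, edgeR adjusted p = 0.0175). It was 0.99 (SE 0.23, edgeR adjusted p = 0.154) in males and 0.78 (SE 0.23, edgeR adjusted p = 0.145) in females, and the female and male values differed by -0.21 (SE 0.32, edgeR adjusted p = 0.901). With a trend on GC content and length removed from each library, Bik had a value of 1.35 over both sexes (SE 0.22, edgeR adjusted p = 0.0106). The adjusted p ran from 1.2e-04 to 0.182 over 21 alternatives and passed the threshold in 14. The call was lost without female FL library 1, 2 or 3 (edgeR adjusted p = 0.0563, 0.0523 and 0.0666) and without female KO library 3 (0.0507), with values between 0.84 and 0.93. It was also lost without female KO libraries 1 and 3 (0.91, edgeR adjusted p = 0.129), without the library of each group highest in macrophage genes (0.93, edgeR adjusted p = 0.182) and with no filter on low counts (0.88, edgeR adjusted p = 0.0508).

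The tested genes whose log2 CPM followed Bik most closely over the 12 libraries, out of 7573 compared, were Cit, Pnkd and Acot7. Their Pearson correlations with it were 0.967, 0.959 and 0.942, as a description of libraries that share group and depth. Cit, a kinase of cytokinesis, averaged 58.8 CPM in male KO and 38.6 CPM in male FL libraries, and 42.6 CPM in female KO and 29.9 CPM in female FL libraries.

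Bcl2l11 encodes Bim, the BH3-only protein that binds all survival members, and it was the BH3-only member with most counts, 2001 to 5230 per library. It had 175, 177 and 199 CPM in male KO libraries 1 to 3, against 256, 250.0 and 199.6 CPM in male FL libraries 1, 2 and 4. Male KO library 3 and male FL library 4 all but met. Female values were 121, 214 and 155 CPM in KO libraries 1 to 3, against 300.6, 268 and 250.2 CPM in FL libraries 1 to 3. Female KO library 2 was the nearest to the FL range, and it was also the female KO library with most Foxp3, at 1824 CPM beside 685 and 825 CPM in the others. Its log2 fold change was -0.36 (SE 0.19, edgeR adjusted p = 0.719) in males, -0.74 (SE 0.19, edgeR adjusted p = 0.109) in females and -0.55 (SE 0.13, edgeR adjusted p = 0.0537) over both sexes. The female and male values differed by -0.39 (SE 0.27, edgeR adjusted p = 0.892).

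The value of Bcl2l11 over both sexes was below 0 in all 22 alternatives, between -0.66 and -0.35, and it passed in 8 of them, with adjusted p from 0.00102 to 0.361. It passed by DESeq2 (-0.55, adjusted p = 0.00704), by limma-voom with quality weights (-0.61, adjusted p = 0.00102), on plus-strand genes alone (-0.57, edgeR adjusted p = 0.0450) and with the GC and length trend removed (-0.49, edgeR adjusted p = 0.0430). It also passed without male FL library 4 (-0.60, edgeR adjusted p = 0.0491) and without female KO library 2 (-0.66, edgeR adjusted p = 0.00307), and with either other filter on low counts (edgeR adjusted p = 0.0335 and 0.0379). Without female KO libraries 1 and 3 it was -0.35 (SE 0.09, edgeR adjusted p = 0.182), on the assumption that the 1 female KO library left varies as other groups do.

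**Figure D3:**
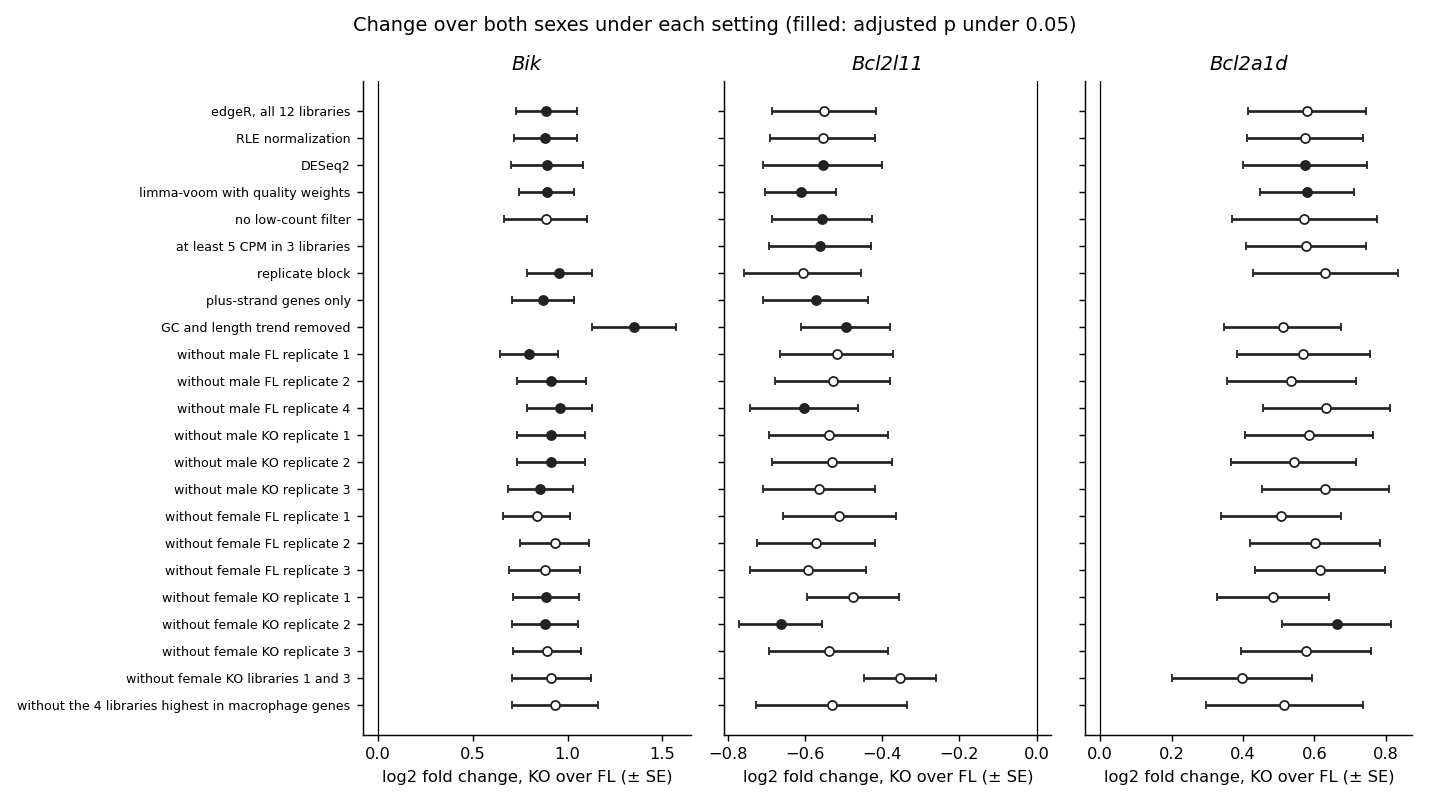
Log2 fold change over both sexes (KO over FL, with SE) of Bik, Bcl2l11 and Bcl2a1d under each setting, filled where the adjusted p was under 0.05. Each gene keeps its direction in every row, while the fill comes and goes with the tool, the filter and single libraries.

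Pmaip1 encodes Noxa, a BH3-only protein that binds Mcl1 in particular. It had 124, 112 and 97.1 CPM in male KO libraries 1 to 3, against 81.9, 68.6 and 68.2 CPM in male FL libraries 1, 2 and 4, and these did not overlap. Female libraries held 59.3, 106 and 67.9 CPM in KO libraries 1 to 3, against 66.8, 73.4 and 62.3 CPM in FL libraries 1 to 3. The female ranges overlapped, and KO library 2 alone stood high. For Pmaip1 the log2 fold change was 0.61 (SE 0.21, edgeR adjusted p = 0.393) in males, 0.20 (SE 0.21, edgeR adjusted p = 0.577) in females and 0.41 (SE 0.15, edgeR adjusted p = 0.161) over both sexes. Without female KO library 2 the female value was -0.08 (SE 0.15, edgeR adjusted p = 0.747) and the value over both sexes 0.27 (SE 0.10, edgeR adjusted p = 0.0780). By limma-voom with quality weights the value over both sexes passed (0.33, adjusted p = 0.0220).

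Bbc3 encodes Puma, a BH3-only target of p53, and libraries of 1 group differed widely in it. It had 10.1, 9.92 and 78.0 CPM in male KO libraries 1 to 3, against 18.4, 54.6 and 16.9 CPM in male FL libraries 1, 2 and 4. Female values of Bbc3 were 0.905, 5.79 and 2.07 CPM in KO libraries 1 to 3, against 7.63, 10.8 and 8.81 CPM in FL libraries 1 to 3. Male ranges overlapped widely and female ranges did not overlap, with KO lower. Between genotypes the log2 fold change was 0.13 (SE 0.86, edgeR adjusted p = 0.999) in males, -1.64 (SE 0.91, edgeR adjusted p = 0.327) in females and -0.76 (SE 0.62, edgeR adjusted p = 0.505) over both sexes. Without male KO library 3 the male value was -1.56 (SE 0.71, edgeR adjusted p = 0.359) and the value over both sexes -1.59 (SE 0.48, edgeR adjusted p = 0.0770). By limma-voom with quality weights it passed in females (-2.23, adjusted p = 0.0145) and over both sexes (-1.58, adjusted p = 0.0136).

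The level of this GC-rich gene was set beside a trait of the libraries. The longest transcript of Bbc3 held 65.2% G and C, beside 63.5% in Bax, 61.0% in Bok and 59.4% in Bik. The other members held 42.1 to 55.9%. Each library's deviation from the gene means was compared across genes with the GC content of the longest transcript. Spearman's rho of that relation was 0.398 in male KO library 3 and 0.240 in male FL library 2, the libraries highest in Bbc3. It was -0.392 in female KO library 1 and -0.304 in female KO library 3, the libraries lowest in Bbc3. Male FL library 4, with the highest rho of 0.447, was not high in Bbc3. With the trend removed, the value of Bbc3 was -0.67 (SE 0.44, edgeR adjusted p = 0.377) in females and 0.03 (SE 0.41) in males. Whether GC content sets the level of Bbc3 was not tested.

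**Figure D4:**
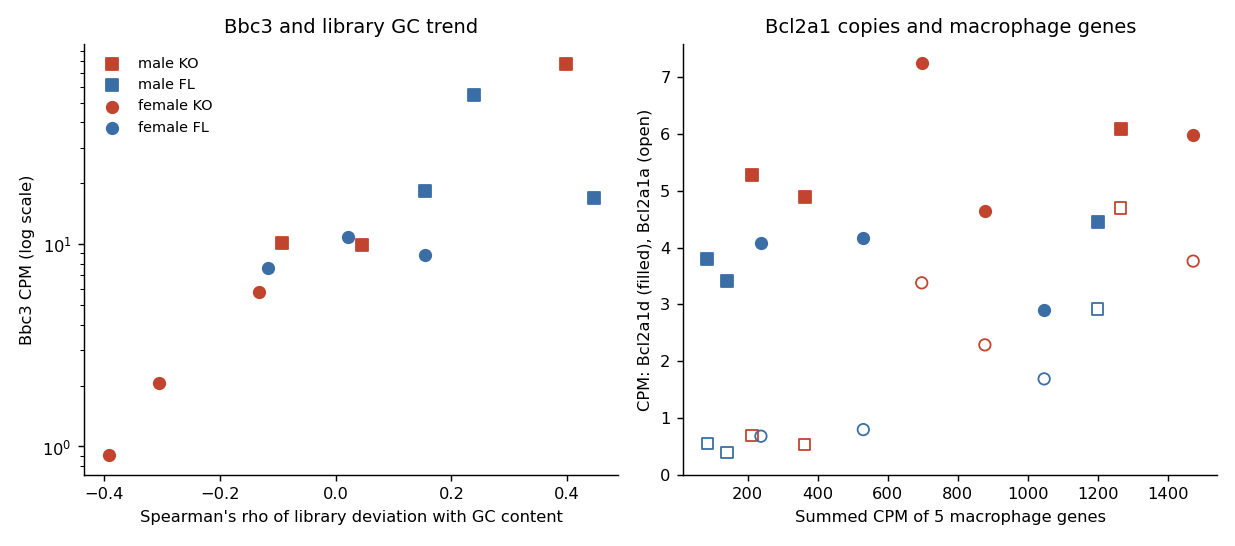
Left, Bbc3 CPM (log scale) against each library's Spearman's rho with GC content, and right, CPM of Bcl2a1d (filled) and Bcl2a1a (open) against the summed CPM of 5 macrophage genes, with KO in red, FL in blue, males as squares and females as circles. Bbc3 runs from 0.905 to 78.0 CPM, and is at 16.9 CPM in male FL library 4, the highest on the GC trait. Both Bcl2a1a and Bcl2a1d are the highest of their male group in male KO library 2 and male FL library 4. These are the male libraries richest in macrophage genes.

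Of the effectors, Bok could be tested and Bax could not. Bok, which can act without help from BH3-only proteins, had 0.881, 0.860 and 1.25 CPM in male KO libraries 1 to 3, against 0.483, 0.543 and 0.209 CPM in male FL libraries 1, 2 and 4. Female values of Bok were 0.241, 0.429 and 1.11 CPM in KO libraries 1 to 3, against 0.608, 0.302 and 0.612 CPM in FL libraries 1 to 3. Males did not overlap and females did, on 3 to 33 counts per library. The male KO libraries were among those through which Bok passed the filter, so the male difference adds no support. For Bok the log2 fold change was 1.28 (SE 0.56, edgeR adjusted p = 0.593) in males, 0.19 (SE 0.57, edgeR adjusted p = 0.867) in females and 0.73 (SE 0.40, edgeR adjusted p = 0.325) over both sexes. Without female KO library 3 it was -0.62 in females and 0.33 over both sexes. Bax ran from 0.0380 to 0.397 CPM in male KO and 0.0776 to 0.414 CPM in male FL libraries, and from 0.148 to 0.543 CPM in female KO and 0.135 to 1.51 CPM in female FL libraries. With no filter Bax had a value of -0.64 over both sexes (SE 0.65, edgeR adjusted p = 0.874), an estimate about the size of its SE at 1 to 20 counts per library.

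Among the survival genes, Mcl1 encodes a short-lived protein on which T cells depend. It had 178, 159 and 307 CPM in male KO libraries 1 to 3, against 228, 279 and 172 CPM in male FL libraries 1, 2 and 4. Female values of Mcl1 were 190, 163 and 166 CPM in KO libraries 1 to 3, against 184, 199 and 179 CPM in FL libraries 1 to 3. The genotypes overlapped in both sexes, and male KO library 3 was the highest of all. For Mcl1 the log2 fold change was -0.07 (SE 0.24, edgeR adjusted p = 0.999) in males, -0.12 (SE 0.24, edgeR adjusted p = 0.800) in females and -0.10 (SE 0.17, edgeR adjusted p = 0.766) over both sexes. The value over both sexes lay between -0.25 and 0.00039 over 22 alternatives. Without male FL library 2, male KO library 1 or male KO library 2 the male value was above 0, at 0.10, 0.05 and 0.11.

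Bcl2a1d is one of the mouse copies of A1, a survival gene that antigen receptor signals induce in lymphocytes. It had 5.28, 6.09 and 4.90 CPM in male KO libraries 1 to 3, against 3.79, 3.41 and 4.45 CPM in male FL libraries 1, 2 and 4. In females it had 7.24, 4.65 and 5.98 CPM in KO libraries 1 to 3, against 2.90, 4.08 and 4.16 CPM in FL libraries 1 to 3. KO libraries were the higher in both sexes without overlap. For Bcl2a1d the log2 fold change was 0.48 (SE 0.23, edgeR adjusted p = 0.668) in males, 0.68 (SE 0.23, edgeR adjusted p = 0.190) in females and 0.58 (SE 0.17, edgeR adjusted p = 0.0855) over both sexes. Over both sexes it passed by DESeq2 (0.57, adjusted p = 0.0164), by limma-voom with quality weights (0.58, adjusted p = 0.00602) and without female KO library 2 (0.66, edgeR adjusted p = 0.0129), in 3 of 21 alternatives.

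The copies of A1 are close to identical, which makes each count uncertain. The coding sequence of Bcl2a1d matched that of Bcl2a1b at 98.8% and that of Bcl2a1a at 98.6% of 516 bases. Bcl2a1b on the plus strand had 7.55, 9.19 and 5.62 CPM in male KO libraries 1 to 3, against 4.62, 3.65 and 6.47 CPM in male FL libraries 1, 2 and 4, with overlap. In females it averaged 7.99 ± 1.99 CPM in KO and 5.18 ± 1.80 CPM in FL libraries (SD, n = 3 each), also with overlap. Over both sexes the value of Bcl2a1b was 0.61 (SE 0.23, edgeR adjusted p = 0.183). Bcl2a1a had 4.70 CPM in male KO library 2 and 2.92 CPM in male FL library 4, against 0.388 to 0.692 CPM in the other male libraries. Those same libraries were highest among males in the summed level of the macrophage genes Adgre1, Csf1r, Mrc1, Timd4 and Mpeg1, chosen after earlier values were seen, at 1265 and 1200 CPM beside 85.3 to 363 CPM in the other male libraries. Bcl2a1d was also the highest of its group in those male libraries, at 6.09 and 4.45 CPM. In female KO library 3, the richest in macrophage genes at 1473 CPM, it had 5.98 CPM, and in female FL library 1, the richest of its group at 1047 CPM, it had 2.90 CPM, the lowest of all. Without the library of each group highest in these genes, Bcl2a1d was 0.52 (SE 0.22, edgeR adjusted p = 0.427) over both sexes. The part of other cells in its level was not tested.

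Bcl2, the founding survival gene, ran from 0.595 to 0.722 CPM in male KO and 0.487 to 1.24 CPM in male FL libraries, and from 0.543 to 0.786 CPM in female KO and 0.680 to 0.946 CPM in female FL libraries. The ranges overlapped in both sexes. Over both sexes its value was -0.45 (SE 0.26, edgeR adjusted p = 0.353) on 7 to 19 counts per library. Bcl2 shares 558 exonic bases with D630008O14Rik on the other strand. Bcl2l1 ran from 0.331 to 0.684 CPM in male KO and 0.278 to 0.466 CPM in male FL libraries, and from 0.302 to 0.516 CPM in female KO and 0.184 to 0.604 CPM in female FL libraries. With no filter its value over both sexes was 0.27 (SE 0.45).

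Within 1 sex none of the 8 tested members passed. In males 0 were called by edgeR against 0.0242% of genes (0.0242% higher, 0.0% lower). There 3 were higher at an unadjusted p under 0.05 (Bik, Bok and Pmaip1), against 8.12% of genes, 5.27% higher and 2.85% lower. Of these, Bok passed the filter on low counts only through KO libraries and adds no support. DESeq2 and limma-voom each called 1 in males, Bik, against 2.03% of 11594 genes with a DESeq2 adjusted p and 1.43% of genes. In females 0 were called against 0.201% of genes (0.185% higher, 0.0161% lower). There 3 were at an unadjusted p under 0.05 (Bik and Bcl2a1d higher, Bcl2l11 lower), against 19.2% of genes, 9.83% higher and 9.33% lower. DESeq2 called 1 in females, Bcl2l11, against 7.3% of 9675 genes with an adjusted p, and limma-voom 4, against 43.8% of genes. Without female KO library 2, edgeR called 2 in females, Bcl2l11 (-0.98, adjusted p = 0.00245) and Bcl2a1d (0.84, adjusted p = 0.0243), where 23.7% of genes were called. When the female effect was set against the male effect, 0 members passed by edgeR and 0 were at an unadjusted p under 0.05, against 0.0% of genes called and 2.73% at an unadjusted p under 0.05, 1.34% above 0 and 1.39% below. By DESeq2 0 members passed, against 0.0% of genes, by limma-voom 0, against 8.38%, and without female KO library 2 by edgeR 0, against 8.5%. The largest difference was that of Bbc3, -1.77 (SE 1.25, edgeR adjusted p = 0.892).

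Other genes of the death pathway were read from lists. There were 5 other survival genes, of which 3 were tested, and none passed by edgeR over both sexes, against 3.31% of all tested genes. An unadjusted p under 0.05 was reached by 1 (Bcl2a1b), against 20.2% of all tested genes. Of 15 other effector and BH3-only genes 9 were tested. Against 2.68% of all tested genes called higher and 0.637% lower, 1 rose and none fell. It was Bcl2l15, a little-studied family member, which averaged 4.10 ± 0.65 CPM in male KO and 1.92 ± 0.50 CPM in male FL libraries, and 4.06 ± 1.32 CPM in female KO and 2.10 ± 0.65 CPM in female FL libraries (SD, n = 3 each). Over both sexes its log2 fold change was 1.02 (SE 0.24, edgeR adjusted p = 0.0438). The third effector, Bak1, and the BH3-only genes Bid and Bmf, all on the minus strand, had at most 2, 12 and 1 counts in a library and were not tested.

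Downstream of the mitochondrion, 8 of 11 genes of caspase inhibitors and their antagonists were tested, with a median of -0.02. Of these, 2 were called higher and none lower, against 2.68% and 0.637% of all tested genes. Birc5 (survivin), which is also a gene of mitosis, averaged 124 ± 17.6 CPM in male KO and 66.8 ± 31.8 CPM in male FL libraries, and 115 ± 21.2 CPM in female KO and 55.3 ± 5.36 CPM in female FL libraries (SD, n = 3 each). Over both sexes Birc5 rose by 0.97 on the log2 scale (SE 0.21, edgeR adjusted p = 0.0312). Naip2, a sensor of bacterial proteins named for its inhibitor domains, had 7 to 16 counts in KO and 1 to 6 in FL libraries, on the minus strand and within a family of near-identical genes. Its log2 fold change was 1.62 (SE 0.33, edgeR adjusted p = 0.0274). Naip2 passed the filter on low counts only through KO libraries, since no FL library reached the required 0.685 CPM, so it had to differ and its call adds no support. The calls of Bcl2l15, Birc5 and Naip2 were each lost when any 1 library was left out other than male FL library 4, male KO library 3 or female KO library 2, with adjusted p up to 0.123, 0.09996 and 0.0958.

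Upstream of the family, 0 of 8 tested death receptor genes, 0 of 15 tested p53, FOXO and stress genes (Bbc3 and Pmaip1 among them) and 0 of 13 tested cytokine input genes passed by edgeR over both sexes. At an unadjusted p under 0.05 they numbered 1 higher, 1 higher and 3 lower, and 1 higher and 4 lower. Of all tested genes 11.8% were higher and 8.44% lower at that p, and 3.31% passed by edgeR over both sexes. Their medians were -0.17, -0.06 and -0.22, beside -0.02 over all genes. In females the cytokine list had a median of -0.55, with 4 of 13 lower at an unadjusted p under 0.05, beside a median of -0.02 and 9.33% of genes lower. In males its median was -0.03. The 4 genes, named after their values were seen, were Foxp3 itself, whose enhancer was deleted, and Jak1, Stat5a and Stat5b. Among female libraries all 4 were lowest in KO libraries 1 and 3. Jak1 and Stat5b lie on the poorly counted minus strand and overlapped between female genotypes. Stat5b had 13.3, 59.2 and 16.9 CPM in female KO libraries 1 to 3, against 55.7, 68.6 and 73.9 CPM in female FL libraries 1 to 3. Foxp3, which is on the cytokine list, had a log2 fold change of -0.86 over both sexes (SE 0.22, edgeR adjusted p = 0.0600).

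**Figure D5:**
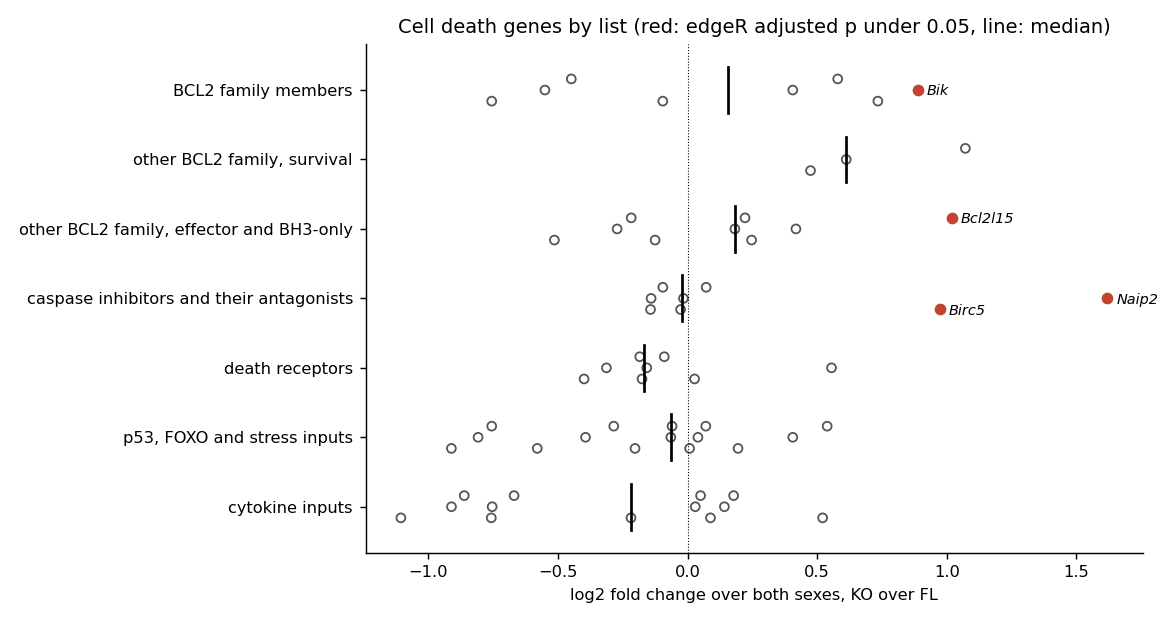
Log2 fold change over both sexes (KO over FL) of each tested gene by list, with called genes in red and named, and the list's median as a line. Red points are few and all to the right of 0, that of Naip2 for a gene that passed the filter only through KO libraries, while 6 of the 7 medians lie between -0.22 and 0.18 and that of the 3 other survival genes tested at 0.61.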

How the data were processed

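For each gene symbol the authors deposited raw counts. The submitters' processing notes name HTSeq 0.6.1p1, STAR 2.3.0e and 2.5.2b, CASAVA and the mm9 build, with no roles. Libraries were made with SMARTer Stranded kits, per the labels' protocols. The strand setting and annotation are not given in the sources used here. The 5 HTSeq summary rows held 64.3 to 70.5% of reads and were left out. Strand, length and GC content came from GENCODE release M21 (GRCm38) by symbol, matching 54510 of 55453 genes.

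edgeR 4.0.16 in R 4.3.3 was run on genes passing filterByExpr on the 4 groups (12411 genes), with TMM, robust quasi-likelihood fits and 1 mean per group over 12 libraries. The threshold was a Benjamini-Hochberg adjusted p of 0.05 over all tested genes. Log2 fold changes are KO over FL. The pipeline was tested on simulated counts that held no effect of sex, GC content or other cells, so that test does not cover such effects. Between replicates the chi-square divided by its degrees of freedom was 4.82 to 149, more than counting noise gives.

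Alternatives were RLE normalization, DESeq2 1.42.0, limma-voom 3.58.1 with quality weights, other filters, the replicate block, 1 sex only, plus-strand genes only, a GC and length trend removed (mgcv 1.9.3, fitted on 7795 genes), and libraries left out. The members and lists were chosen with earlier results of these data known. All members were named, and of each list up to 4 called genes and Foxp3. Some items are not reported here. Figures used matplotlib 3.10.9.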

Additional observations from a re-analysis of the deposited data

How the results depend on the processing

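Over 698 alternative values of 32 member results, 642 kept both their direction and their side of the threshold, 22 passed it newly, 7 no longer passed and 27 changed sign, none of the last with a call on either side. The number of members called over both sexes, 1 as reported, was 3 by DESeq2, 5 by limma-voom, 2 on plus-strand genes, 2 with the GC and length trend removed, 0 without female KO libraries 1 and 3, 0 without the 4 libraries highest in macrophage genes, and 0 to 3 when 1 library was left out. It stayed at 1 by RLE and with either other filter, but with those filters the call was that of Bcl2l11. The filter of at least 5 CPM in 3 libraries left 5 members to test, and Bik was not among them. Over all genes, 411 were called over both sexes, against 1129 by DESeq2, 4630 by limma-voom, 209 with the replicate block, 44 without female KO libraries 1 and 3, 0 without the 4 libraries highest in macrophage genes and 98 to 2940 with 1 library left out. The GC correction put the median of all genes in females at 0.09, against -0.02 as reported. Among members, in males it was 1 by DESeq2 and 1 by limma-voom, and in females 1 by DESeq2, 4 by limma-voom and 0 to 2 when 1 library was left out. Over all genes in females, 25 were called, against 706 by DESeq2, 5437 by limma-voom and 0 to 3089 with 1 library left out.

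Signs changed for Bok in females without female KO libraries 1 and 3 (-0.24) and without the 4 libraries (-0.47), and for Bbc3 in males by limma-voom (-0.93) and with the replicate block (-0.66). For the difference between females and males they changed for Bcl2l11 (0.0085), Pmaip1 (0.0499) and Bcl2a1d (-0.15) without female KO libraries 1 and 3, for Bik with the GC trend removed (0.51), and for Mcl1 by limma-voom (0.18), with the replicate block (0.23) and with the GC trend removed (0.0922). With 1 library left out, Bok in females ran from -0.62 to 0.56, Pmaip1 in females from -0.0781 to 0.35, Bbc3 in males from -1.56 to 0.90, Mcl1 in males from -0.41 to 0.11 and over both sexes from -0.25 to 0.00039. The differences between sexes ran from -0.19 to 0.38 for Bcl2 and from -0.22 to 0.31 for Mcl1. The cause was not tested.

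Same-numbered KO and FL libraries did not deviate together throughout, with correlations of 0.442 and -0.614 in males and 0.189, 0.279 and -0.225 in females. The numbers were therefore not used as pairs in the main fit. With 3 libraries per group, such correlations cannot exclude that same-numbered libraries belong together. The replicate block used the library number alone, shared by males and females, so it did not model pairs within each sex. The male FL library whose number occurs in no other library was taken up by its own term. With this block Bik passed the threshold (0.96, edgeR adjusted p = 0.0425). Whether the call holds with pairs within each sex was not tested. DESeq2 gave Bbc3 no adjusted p, and its DESeq2 values were counted as not passing the threshold. Low counts limit Bax, Bcl2, Bcl2l1 and Bok, at 1 to 33 per library, and all of these but Bok lie on the poorly counted minus strand.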

Other observations

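A ratio of 2 genes within a library does not depend on scaling between libraries. The counts of Bcl2l11 over those of Mcl1 had ratios of 0.636, 1.31 and 0.936 in female KO libraries 1 to 3, against 1.64, 1.35 and 1.40 in female FL libraries 1 to 3. These did not overlap, but KO library 2 and FL library 2 all but met. Bcl2l11 by itself did not overlap in females either, as 25.0% of tested genes did not. In males the ratios were 0.985, 1.11 and 0.647 in KO libraries 1 to 3, against 1.12, 0.897 and 1.16 in FL libraries 1, 2 and 4, and they overlapped. The ratio of Pmaip1 over Mcl1 ran from 0.312 to 0.651 in female KO and 0.349 to 0.368 in female FL libraries, and from 0.316 to 0.702 in male KO and 0.246 to 0.397 in male FL libraries, with overlap in both sexes.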
